A study of Mus musculus with 8 samples.

Results

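Gas5, Snhg1, Snhg3, Snhg4, Snhg5, Snhg6, Snhg8, Snhg11 and Snhg12 are noncoding genes whose introns carry small nucleolar RNAs. The 9 genes were taken by name from the deposited expression table, in which all 9 had a row among 17597 genes and 1097 subfamilies of transposable elements. The table came from RNA sequencing of mouse embryonic stem cells of Cast x 129S background, in 8 libraries. The cells carried METTL3, the catalytic subunit of the m6A writer complex, fused to the FKBP12F36V tag, which lets the small molecule dTAG-13 send the fusion protein for degradation. The endogenous Xist promoter had been replaced with a doxycycline-inducible TetOn promoter, and no doxycycline was given. The labels put that promoter on the 129S allele, whereas the study's text places these cells in a line that induces Xist from the Cast allele. Of the libraries, 4 came from cells given dTAG-13 for 26 hours and 4 from untreated cells, with 2 libraries from each of the clones C3 and H5 in each group. Tag, promoter and background were shared by both groups, each clone derives from a single edited cell, and no untagged cells were among the samples. The cells grew on inactivated mouse fibroblasts. The study's methods for these libraries and the molecule given in the labels are total RNA, and the values were read as total RNA, although the labels' extraction text describes chromatin-bound RNA.

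A host gene of this kind is transcribed and spliced, and the small nucleolar RNA is trimmed out of the excised intron. Small nucleolar RNAs with boxes C and D guide ribose methylation of ribosomal RNA, and those with boxes H and ACA guide the change of uridine to pseudouridine. The spliced exons encode no long protein. Many host transcripts begin with a C followed by a run of pyrimidines, the 5′ terminal oligopyrimidine (TOP) start that ribosomal protein mRNAs share, and many spliced host RNAs are engaged by ribosomes and removed by nonsense-mediated decay. Gas5 was first known as a transcript that accumulates in growth-arrested cells.

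Each gene had a single level, the authors' mean normalised count over all 8 libraries. This mean pools dTAG-13 and untreated cells, it has no error, and the depth of each library is unknown from it. Differences between genes were therefore not tested, and the other values of the table, which are the authors' own comparison of dTAG-13 with untreated cells, were not used. No difference between the groups is given. Sums and ranks below describe the pooled cultures, in which fewer cells expressing a gene and less RNA per cell cannot be told apart.

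The small RNAs these genes are named for lie in their introns. GENCODE placed 31 small nucleolar RNA genes within the 9 hosts, all on the strand of the host and all inside an intron of some transcript. The following 5 are shown as the C/D type, with box C (TGATGA) and box D (CTGA) in capitals. Each was read 5′ to 3′ from GRCm38 on the strand of its host.
Snord50a in Snhg5: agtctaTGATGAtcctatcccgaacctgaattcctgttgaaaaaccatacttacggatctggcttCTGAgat
Snord50b in Snhg5: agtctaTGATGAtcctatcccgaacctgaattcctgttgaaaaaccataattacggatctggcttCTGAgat
Snord80 in Gas5: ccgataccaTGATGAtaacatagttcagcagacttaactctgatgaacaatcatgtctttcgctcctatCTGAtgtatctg
Snord47 in Gas5: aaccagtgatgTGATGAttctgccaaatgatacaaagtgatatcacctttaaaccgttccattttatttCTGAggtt
Snord87 in Snhg6: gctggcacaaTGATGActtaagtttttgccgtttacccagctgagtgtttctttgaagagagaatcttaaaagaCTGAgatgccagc

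In these 5 RNAs box C stands near the 5′ end and box D near the 3′ end. Snord50a lay at chr9:88521529-88521600 on the minus strand and Snord50b at chr9:88521797-88521868, in neighbouring introns of Snhg5. Both had 72 bases and they differed at 1 base, C50A, with Snord50a first and positions counted from its 5′ end, an identity of 98.6%. Snord80 lay at chr1:161037601-161037681 and Snord47 at chr1:161038082-161038158, both on the plus strand. Snord87 lay at chr1:9942463-9942549 on the minus strand.

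The following 3 are shown as the longer H/ACA type, with the ACA near the 3′ end in capitals.
Snora73a in Snhg3: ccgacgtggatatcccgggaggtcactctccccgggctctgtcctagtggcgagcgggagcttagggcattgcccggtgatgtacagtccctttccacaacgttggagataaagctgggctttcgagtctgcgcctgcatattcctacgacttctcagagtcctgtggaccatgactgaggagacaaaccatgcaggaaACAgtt
Snora24 in Snhg8: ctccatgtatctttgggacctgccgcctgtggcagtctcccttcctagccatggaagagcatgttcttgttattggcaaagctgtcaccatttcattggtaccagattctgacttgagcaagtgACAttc
Snora61 in Snhg12: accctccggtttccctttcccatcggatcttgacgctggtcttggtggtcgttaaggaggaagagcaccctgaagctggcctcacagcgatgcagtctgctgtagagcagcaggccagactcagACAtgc

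Snora73a lay at chr4:132352775-132352979 on the minus strand, and Snhg3 also held Snora73b at chr4:132352322-132352526. The pair had 205 bases each and differed at 7, an identity of 96.6%. Snora24 lay at chr3:123507937-123508066 on the minus strand and Snora61 at chr4:132310240-132310369 on the plus strand. Snhg3 and Snhg5 thus each held a pair of near-identical small RNAs, and reads from such a pair could be hard to place uniquely.

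By their letters the 31 genes fell into 17 of C/D type, 8 of H/ACA type and 6 with neither set. A gene counted as C/D when TGATGA began in its first 20 bases and CTGA lay in its last 20, and as H/ACA when it had at least 120 bases and ACA in its last 12. Missing letters say only that these exact letters were not in these windows: Snord78 in Gas5 and Snord22 in Snhg1, named as C/D RNAs, were among those with neither.

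The hosts differed in what they carried. Gas5 held 9 small nucleolar RNA genes, 7 with C/D letters and 2 with neither. Snhg1 held 8, of which 6 had C/D letters. Snhg12 was the host with both types, holding 4: Snora16a and Snora61 with H/ACA letters, Snord99 with C/D letters, and Snora44 with neither. Snhg3 and Snhg11 held 2 H/ACA genes each, Snhg5 held 2 C/D genes, Snhg6 held 1 C/D gene and Snhg8 held 1 H/ACA gene. Snhg4 held Snora74a and Mir1949, a gene with neither set. Mir1949, and Mir5117 with C/D letters in Gas5, carry microRNA names but are classed by GENCODE as small nucleolar RNA genes. The C/D genes had 60 to 87 bases (median 74) and the H/ACA genes 130 to 205 (median 135).

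The position of each gene was taken in the shortest annotated intron that held it. Those introns had 175 to 634 bases for the C/D type and 235 to 3698 for the H/ACA type, and intron length limits the distance. The 17 C/D genes ended 65 to 313 bases before the 3′ splice site, with a median of 73. Of these, 14 ended 50 to 100 bases before it. The 8 H/ACA genes ended 74 to 2416 bases before the splice site, with a median of 95, and 4 ended 50 to 100 bases before it. The far end of that range was a gene in Snhg11, whose 2 small RNA genes share an intron of 3698 bases. None of the 31 had a row of its own in the table, so the levels of the small RNAs were not measured. Most of them also lie inside an exon of some annotated transcript of their host. Whether reads from them were counted for the host is unknown.

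**Figure D1:**
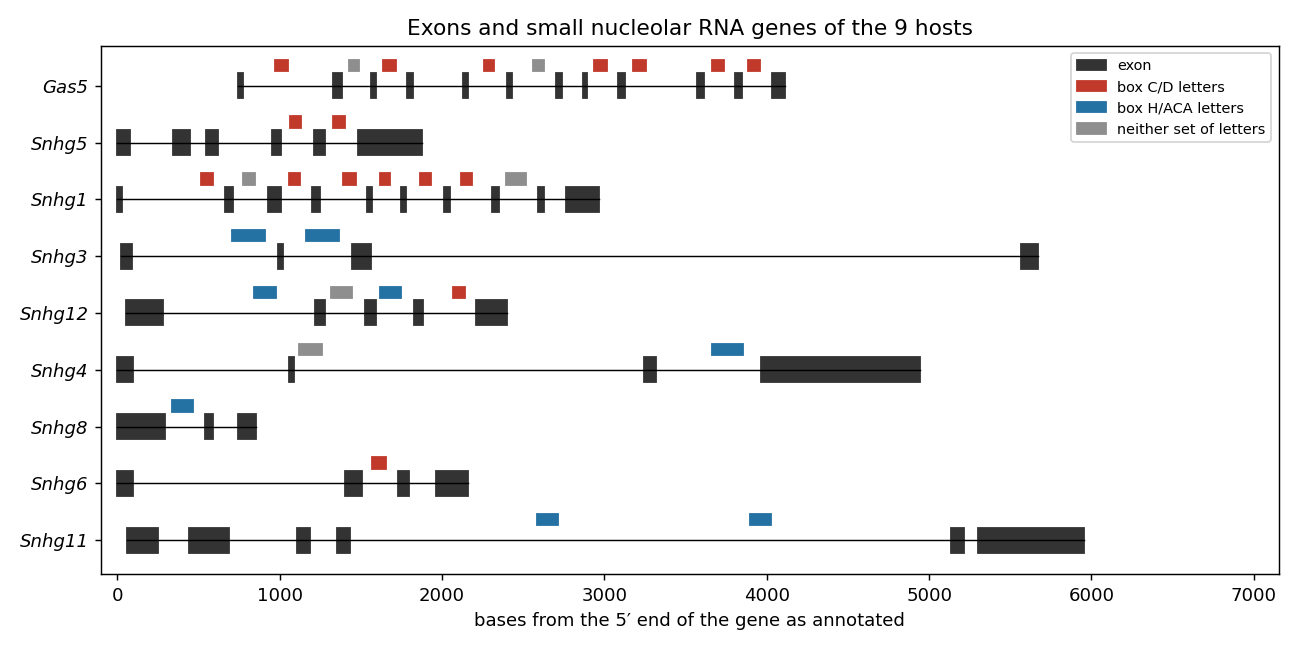
One annotated transcript of each of the 9 host genes, with bases from the annotated 5′ end of the gene on the x axis. Black boxes are exons, lines are introns, and coloured boxes above each line are small nucleolar RNA genes by type. Gas5 (9 small RNA genes) and Snhg1 (8) alternate short exons with small RNA genes, most of them with C/D letters, whereas Snhg11 carries its 2 H/ACA genes in one long intron.

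The start of the host transcript was read next, because the TOP start is a property the gene names do not use. A match was a C at the first base of an annotated GENCODE transcript followed by at least 4 pyrimidines. It was found in at least 1 transcript of 7 of the 9 hosts, against 1619 of 16661 genes matched to the annotation (9.72%), 61 of 764 long noncoding genes (7.98%) and 35 of 85 cytosolic ribosomal protein genes (41.2%). Per transcript the counts were 13 of 83 in the hosts (15.7%), 52 of 510 in the ribosomal protein genes (10.2%) and 1894 of 88195 over all matched genes (2.15%). A gene with many transcripts has more chances of a match, so the share of genes and the share of transcripts are both given. The first 30 bases of the matching transcripts are shown for 6 hosts, read 5′ to 3′ on the strand of the host, with the pyrimidine tract in capitals.
Gas5: CTTTCggagctgtgcggcattctgagcagg
Snhg3: CTCTCTaggcgtcgctctcttggtgtgctt
Snhg5: CTTTTacgacggagcctaagatattctttg
Snhg6: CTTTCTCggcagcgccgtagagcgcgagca
Snhg8: CCCTCgcgcgcaggctcttgggagagcgtc
Snhg12: CCTTTCTCgcttcatccgcggtccctgtct

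The tract was not in every transcript of a host. Gas5 had it in 5 of 25 transcripts, 4 of them with the start shown. Snhg12 had it in 3 of 10, and Snhg3, Snhg4, Snhg5, Snhg6 and Snhg8 in 1 each. Snhg1 (18 transcripts) and Snhg11 (5 transcripts) had no match at the annotated first base. With the start allowed to lie up to 5 bases further in, 8 hosts matched (88.9%), against 58.8% of ribosomal protein genes and 36.0% of all matched genes. With at least 6 pyrimidines after the C, 3 hosts matched (33.3%), namely Snhg4, Snhg6 and Snhg12, against 31.8% of ribosomal protein genes and 4.39% of all matched genes. Per transcript this stricter rule gave 6.02% in the hosts and 6.86% in the ribosomal protein genes, the opposite order to the rule with 4 pyrimidines. Annotated first bases can be off by a few bases, and the starts of a host can lie further apart, which moves these counts.

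The RefSeq promoter table (GRCm38.p6) held 7 of the hosts, Snhg4 and Snhg6 not being matched. Fewer hosts had the tract at a RefSeq start than at a GENCODE start, but RefSeq also gave fewer starts. Per start it stood at 2 of 8 RefSeq starts of these hosts, against 13 of 83 GENCODE transcripts of the 9 hosts. A C followed by at least 4 pyrimidines stood at a start of 2 of the 7 hosts, and in 823 of 32851 promoters (2.51%). Within 5 bases on either side it was in 4 of the 7 and in 18.3% of promoters. With at least 6 pyrimidines it was in 0 of the 7 and in 1.08% of promoters. The windows below run from 45 bases before the RefSeq start to 30 bases from the start on, 5′ to 3′ on the strand of the host. They are shown for 4 hosts in which the letters TATA lay 40 to 15 bases before the start, a motif looked for after the windows had been seen. Capitals mark the letters TATA, overlapping matches included, and, where present, the pyrimidine tract at or next to the start.
Gas5: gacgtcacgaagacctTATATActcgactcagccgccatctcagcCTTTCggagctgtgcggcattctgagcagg
Snhg12: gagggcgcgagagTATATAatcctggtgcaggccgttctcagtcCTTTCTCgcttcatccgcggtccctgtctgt
Snhg8: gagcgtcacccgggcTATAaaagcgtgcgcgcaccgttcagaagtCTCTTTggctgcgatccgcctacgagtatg
Snhg1: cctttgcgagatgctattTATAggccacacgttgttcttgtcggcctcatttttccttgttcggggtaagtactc

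RefSeq gave Gas5 a pair of starts. The window shown lay at chr1:161035121-161035195 and its TATA began 29 bases before the start, whereas the window of the other start, at chr1:161034556-161034630, had neither TATA there nor the tract. That of Snhg12 lay at chr4:132308633-132308707 with TATA 32 bases before the start and the nearest tract match beginning 1 base before it. The letter before that match is also a C, which belongs to the tract in the GENCODE start shown for Snhg12. The Snhg8 window, on the minus strand, lay at chr3:123508307-123508381 with TATA 30 bases before the start, which is at 123508336. The last letters of the GENCODE start shown for Snhg8 are the first letters of this window. That GENCODE start therefore lies upstream of this TATA, and its tract is not the one in capitals here. The Snhg1 window lay at chr19:8723442-8723516 with TATA 27 bases before the start, and pyrimidine-rich letters around the start did not meet the tract rule. Snhg5 also had TATA, 23 bases before its start. TATA was in this window in 1991 of 32851 promoters of the table (6.06%), on the strand of the gene. Snhg3 and Snhg11 did not have these letters there, which says nothing about what binds them. With under 80% of the hosts in the promoter table, a comparison of the hosts as a list with all promoters is void, and the windows stand as descriptions of single genes.

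Gas5 had the highest level of the 9 hosts, with a mean normalised count of 6242 and 1660 per kb of merged exons. Mean counts grow with transcript length, so the order of the genes was taken per kb. On that scale the order was Gas5, Snhg5 (1482 per kb), Snhg3 (1407), Snhg1 (764), Snhg8 (743), Snhg12 (388), Snhg6 (318), Snhg4 (139) and Snhg11 (7.10). The median of the hosts was 743 per kb, that of the 764 long noncoding genes was 2.34 per kb, and that of all genes matched to the annotation was 40.01. Thus 8 hosts were above the median matched gene per kb and Snhg11 was below it. Only 280 of the 764 long noncoding genes reached a mean count of 10, so their median is that of genes with few counts. No neighbours in this order could be called different, because the table carries no spread.

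**Figure D2:**
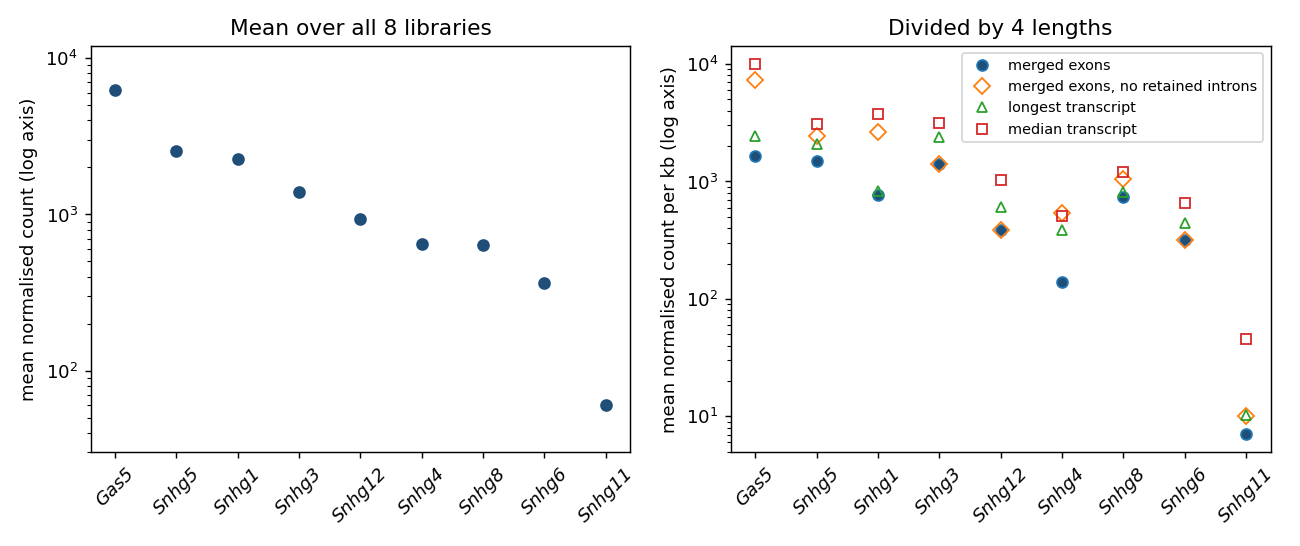
Mean normalised count over all 8 libraries (left, log axis) and the same per kb of exons under 4 definitions of exon length (right, log axis) for the 9 hosts. No error can be drawn from a pooled mean. Gas5 is highest and Snhg11 lowest by every length.

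The place of several hosts depended on how their exons were measured. Lengths came from GENCODE, whereas the study took its gene annotation from the UCSC genome browser, so the exons counted may differ. Gas5, Snhg8 and Snhg11 kept their places (1, 5 and 9) whether length was taken as merged exons, as the longest transcript, as the median transcript or as merged exons without retained-intron transcripts. The other hosts changed places. Gas5 showed why the choice matters: GENCODE gave it 25 transcripts, 20 of them with a retained intron, so that merged exons came to 3760 bases of a gene spanning 4118. Without those transcripts the level of Gas5 was 7335 per kb. Snhg1, with 14 retained-intron transcripts of 18, went from 764 to 2623 per kb, and Snhg4, with 5 of 6, from 139 to 543. Snhg3, Snhg6 and Snhg12 had none, and their values of 1407, 318 and 388 per kb did not move.

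Gas5 (chr1:161034422-161038539, plus strand) was at percentile 97.5 of all matched genes per kb. Its mean count made up 41.3% of the sum over the 9 hosts, which was 0.104% of the 1.46e+07 counts of all genes. The gene Zbtb37 overlaps Gas5 on the opposite strand and shares no exon base with it.

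Snhg5 (chr9:88521050-88522929, minus strand), the host of the Snord50 pair, had a mean count of 2564 and was at percentile 97.1 per kb. Snhg1 (chr19:8723475-8726443, plus strand), with its 8 small RNA genes, had a mean count of 2269 and was at percentile 93.4. No overlapping annotated gene was found for either of them.

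Snhg3 and Snhg12 are neighbours on chromosome 4, on opposite strands, with 36989 bases between them. Snhg3 (chr4:132348014-132353686, minus strand) had a mean count of 1387 and Snhg12 (chr4:132308623-132311024, plus strand) one of 933. Per kb Snhg3 was at percentile 97.0 and Snhg12 at 87.0. The value of Snhg3 is uncertain: Rcc1, which encodes the nucleotide exchange factor of the GTPase Ran and had a mean count of 2522, lies on the same strand and shares 135 exon bases with it, 13.7% of the Snhg3 exons. Reads in those bases could be counted for either gene. The antisense gene Gm17300, with no row in the table, covers 705 bases (71.5%) of the Snhg3 exons, and a count that ignored strand would mix both genes.

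Snhg8 (chr3:123507552-123508404, minus strand) is the shortest of the hosts, with 853 merged exon bases. It had a mean count of 634 and was at percentile 93.2 per kb. Snhg6 (chr1:9941959-9944118, minus strand) had a mean count of 365 and was at percentile 84.2. It shares 127 exon bases, 11.1% of its exons, with Mcmdc2 on the opposite strand, a gene with a mean count of 31.1.

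Snhg4 lies on chromosome 18 from 35553371 to 35558316, on the plus strand. It was matched to the annotation by position, since GENCODE names that gene AC121821.1. Its mean count was 647, which over 4666 merged exon bases came to 139 per kb, percentile 70.6. The gene Gm28285, with no row, shares 246 of those bases (5.27%) on the same strand.

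Snhg11 (chr2:158375638-158386145, plus strand) stood apart at the low end. Its mean count was 60.5, and at 7.10 per kb it was at percentile 30.5, below the median matched gene of 40.01 per kb. Snhg11 is best known from neurons. GENCODE classes it as protein coding, whereas RefSeq classes it as a long noncoding RNA. The median of the 764 long noncoding genes, 2.34 per kb, was lower.

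As a second, cruder scale the mean counts were ranked without division by length, so that long genes rank higher. By that rank 8 hosts were above the median gene and 3 (Gas5, Snhg5 and Snhg1) were at or above the 90th percentile of the 17597 genes. Snhg3 was at percentile 84.8, Snhg12 at 78.2, Snhg4 at 71.5, Snhg8 at 71.1, Snhg6 at 61.0 and Snhg11 at 38.7. Placed among the 764 long noncoding genes, 8 hosts were at or above the 90th percentile.

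**Figure D3:**
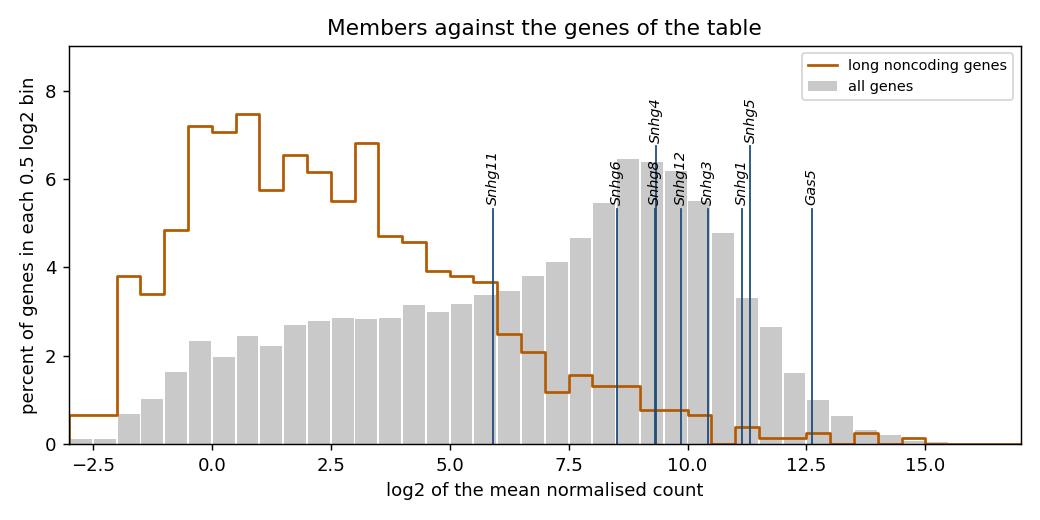
Distribution of log2 mean normalised count over all 17597 genes (grey bars) and the 764 long noncoding genes (orange line), in percent of genes per 0.5 log2 bin, with a blue line at each host. Counts are not divided by length. Long noncoding genes lie mostly left of the hosts, with a median mean count of 4.94 before the log2. Snhg11, with a mean count of 60.5 before the log2, is the host nearest to them.

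Because m6A is written by the complex that dTAG-13 was used to deplete, the letters GGAC, the core of its consensus, were counted in the longest transcript of each host. A match is not a methylated site. The longest transcript of Gas5 (2556 bases) exceeds its merged exons without retained-intron transcripts (851), and that of Snhg1 (2728) exceeds 865. The same holds for Snhg4, Snhg5 and Snhg8, so the densities of these hosts include intron letters. Means over all transcripts include retained-intron transcripts too, and density in spliced exons alone was not counted. Gas5 had 15 matches in 2556 bases, 5.87 per kb, and Snhg11 had 31, 5.29 per kb. Both were above the upper quartile of the 280 long noncoding genes whose mean count reached 10, at percentiles 87.7 and 83.2. Snhg4 (4.18 per kb), Snhg8 (3.87) and Snhg6 (3.68) lay near the middle. Snhg3 (1.72 per kb), Snhg5 (1.64), Snhg1 (1.47) and Snhg12 (1.30) were all below the lower quartile of those genes.

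The hosts thus did not share one density, and the order depended on the transcript: averaged over all annotated transcripts, Snhg5 (2.79 per kb) stood above Snhg8 (2.66) and Snhg6 (2.32), with Snhg12 at 2.27. On this measure Snhg11 (7.21) and Gas5 (6.35) were the highest, and Snhg1 (0.923) and Snhg3 (0.799) were the lowest. In the longest transcripts the hosts' median of 3.68 per kb lay between the median of the 280 long noncoding genes (3.45, quartiles 2.26 and 4.62) and that of 12531 protein coding genes (4.04, quartiles 2.95 and 5.31). Averaged over all transcripts it was 2.66 per kb, below both the long noncoding (3.81) and the protein coding genes (4.33), so the place of the hosts turned with the transcripts used. Short transcripts make the low values coarse, since Snhg3 had 1 match, and Snhg5 and Snhg12 had 2 each. For the longer match GGACT, the median of the hosts was 1.17 per kb against 1.02 in long noncoding and 1.04 in protein coding genes, and Snhg3, Snhg5 and Snhg12 had none.

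**Figure D4:**
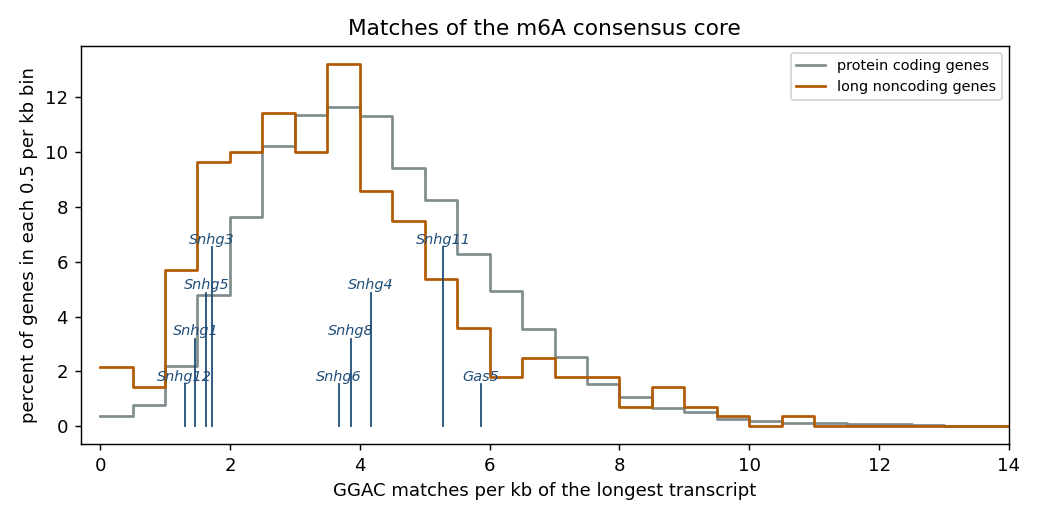
GGAC matches per kb of the longest transcript (x axis, drawn to 14 per kb) for 280 long noncoding genes (orange) and 12531 protein coding genes (grey), in percent of genes per 0.5 per kb bin, with a blue line at each host. Snhg12, Snhg1, Snhg5 and Snhg3 lie together at 1.30 to 1.72 per kb, and Gas5 lies farthest right at 5.87. The longest transcripts of Gas5, Snhg1, Snhg4, Snhg5 and Snhg8 hold retained intron.

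Genes around the hosts in the same pathway were read from lists of fixed membership, each as the pooled mean of the 8 libraries. Of 14 other noncoding hosts, 7 had a row, with mean counts from 9.81 (Snhg18) to 15997 (Rian, in the imprinted Dlk1-Dio3 region with Meg3 at 2949), and 6 with an exon length had a median of 217 per kb. The proteins that build C/D particles had a median mean count of 6401, with Nop58 at 8403, Nop56 at 8254 and the methyltransferase Fbl lowest at 3947. Those of H/ACA particles had a median of 3128, with the pseudouridine synthase Dkc1 at 10118, Nhp2 at 3881 and Gar1 lowest at 554. Per kb the medians were 938 for C/D proteins, over the 3 with an exon length, and 2298 for H/ACA proteins, against 743 for the hosts.

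The 10 nonsense-mediated decay factors had mean counts from 339 (Smg9) to 4310 (the kinase Smg1), with Smg5 at 3373 and a median of 241 per kb. The 85 cytosolic ribosomal protein genes, the largest class of TOP genes, had a median of 4959 per kb, above each of the 9 hosts by merged exons. Their mean counts ran from 28.1 (Rpl3l) to 29100 (Rps2), with Rpl5 at 27539. Of the nuclear long noncoding RNAs, Malat1 had a mean count of 26860 and 3846 per kb, above each of the hosts by merged exons. The other members of that list were lower per kb, with Kcnq1ot1 at 71.7, Xist at 43.2 and Neat1 at 26.4, so that its median of 57.4 per kb lay below that of the hosts. In the m6A writer complex Wtap had a mean count of 4824, Virma (under its older symbol 1110037F02Rik) 2162, Mettl3 684 and Cbll1 316. The tag acts on METTL3 protein, so the Mettl3 count does not check the depletion.

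The labelled cell type was checked on markers. All 10 stem cell markers had a row, with mean counts from 1019 (Utf1) to 11934 (Pou5f1), Dppa5a at 9992 and a median of 7377. Of the fibroblast markers all 10 had a row with a median of 16.8, from 0.768 (Postn) to 4941 (Fn1), Sparc being at 3052. Vim was at 2073 and Thy1 at 116. The collagens Col1a1 and Col1a2 were at 19.8 and 13.8, and Col3a1, Dcn and Lum were lower. The 6 markers of differentiated cells ran from 8.04 (Gata6) to 110 (Pax6), with T at 101 and a median of 17.3. Whether feeder or differentiated cells added to a host's level was not tested, since the mean cannot be divided by library.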

How the data were processed

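RNA sequencing libraries from mouse embryonic stem cells (4 with dTAG-13, 4 untreated) were sequenced by the authors. Per the study's methods, read pairs matching ribosomal RNA were discarded with bowtie2, the remainder was aligned to SNP-masked mm10 with STAR, unique alignments were kept, duplicates were removed with Picard, and genes and transposable elements were counted with TEtranscripts. The methods state default parameters for the counting, whereas the name of the deposited table contains the word reverse, so its strand setting is not settled here. The deposited values used here were the authors' mean normalised count per gene, a signal pooled over all 8 libraries, with no error and no depth per library. The table's other 5 columns hold the authors' own comparison (fold change, its error, statistic and p-values) and were not used, so no test between groups or genes was made.

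Genes were matched by symbol to GENCODE vM21 (GRCm38, the build of the files), 16660 of 17597 (94.7%), plus 1 host by position. Mean counts were divided by the merged length of GENCODE exons. These may differ from the exons counted, since the study took its gene annotation from UCSC. Percentiles are among the genes of the table. Sequences came from that genome, the GENCODE transcripts and RefSeq promoters (GRCm38.p6). Counting of letters and intervals was tested on simulated data. Python 3.11.15, pandas 2.3.3, numpy 2.4.6 and matplotlib 3.10.9 were used.

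The host genes and lists were chosen with earlier results of these data known. Named were all 9 hosts, the 2 highest and the lowest gene of each list by mean count, and Mettl3. Small nucleolar RNA genes, overlapping genes, Xist and the fibroblast markers other than Fn1, Sparc and Postn were named after their values were seen. Alternatives were other exon lengths, other gene backgrounds, other start and motif rules and either strand for small RNA genes.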

Additional observations from a re-analysis of the deposited data

How the results depend on the processing

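Each value is a mean over both groups, so leaving out replicates could not be run, and no other normalisation could be tried. No paired analysis was possible because the table holds one pooled mean per gene. The median level of the hosts, 743 per kb of merged exons, became 817 with the longest transcript, 1200.01 with the median transcript and 1049 without retained-intron transcripts, a length added after the data were seen. The 3 hosts at or above the 90th percentile of mean count became 2 among genes whose mean count reached 10, 8 among long noncoding genes and 5 per kb. The 7 hosts with a pyrimidine tract at a transcript start became 8 within 5 bases of it and 3 with at least 6 pyrimidines. The 31 small nucleolar RNA genes stayed 31 on either strand. The GGAC median of 3.68 per kb became 1.17 for GGACT and 2.66 as a mean over all transcripts, where long noncoding genes had 3.81 and protein coding genes 4.33. Over 43 results and 105 alternatives, 12 values were identical to those reported and the others changed. Depth limits cannot be given for a pooled mean.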

Other observations

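Of small nucleolar and Cajal body RNAs, 3 had rows of their own in the table, none of them inside the 9 hosts: Scarna13 with a mean count of 1315, Snord17 with 634 and Scarna6 with 323.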
